A study of Bos taurus with 16 samples.

Results

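The circadian clock of the liver was described here through the transcripts of 9 core genes, *ARNTL*, *CLOCK*, *PER1*, *PER3*, *CRY1*, *CRY2*, *NR1D1*, *NR1D2* and *DBP*, in 16 Holstein cows. The genes were taken from a list of 10 clock genes by their symbol on the array, where each of the 9 had 1 transcript cluster, out of 20421 clusters with 20011 gene symbols, and *PER2* was not analysed here. A transcript cluster is the set of probes that the array groups under 1 gene, and its value is a log2 signal, so that a difference of 1 is a doubling. The liver of each cow was biopsied at week 1 postpartum, and its RNA was hybridised to 1 Affymetrix bovine array. The *FGF21* high group held the 8 cows with most hepatic *FGF21* transcript and the *FGF21* low group the 8 with least. FGF21 is a hormone of the liver that rises in rodents when energy is short. Only cows that had needed no medical treatment could enter either group. All were multiparous females that received the same total mixed ration, and no treatment separated the groups. The study gives a higher mean parity, with a wider spread, for the *FGF21* high cows. The part of parity in the clock gene differences was not tested.

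The clock is a feedback loop that runs in almost every cell. ARNTL, also called BMAL1, pairs with CLOCK and switches on the period (*PER*), cryptochrome (*CRY*), REV-ERB (*NR1D1*, *NR1D2*) and *DBP* genes through E-box elements. PER and CRY proteins return to the nucleus and inhibit that pair, while the REV-ERB receptors repress *ARNTL* in competition with the activating ROR receptors. DBP passes the rhythm on to metabolic genes of the liver through D-box elements, where NFIL3 opposes it. In rodent liver, *ARNTL* peaks at the opposite phase to *DBP* and the *PER* genes, so the level of any of these transcripts depends on the time at which a biopsy is taken. That time was not given for any cow in the sources used here.

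*FGF21* itself chose the cows and is given as a description. Its log2 signal had a lowest value of 6.16, a median of 7.08 and a highest value of 8.69 in the *FGF21* high cows, against 4.78, 5.38 and 5.51 in the *FGF21* low cows. The groups did not overlap and their means were 4.23-fold apart. Median log2 signals per array ranged from 6.25 to 6.31 in the *FGF21* high group and from 6.26 to 6.34 in the *FGF21* low group, and interquartile ranges from 2.15 to 2.43 in the *FGF21* high group and from 2.08 to 2.36 in the *FGF21* low group. The biopsies carried the markers of their tissue, since 10 hepatocyte markers had a median log2 signal of 12.73, against a median of 6.28 over all clusters. Markers of erythrocytes and of the muscle and skin on the biopsy path had median signals of 5.60 and 4.93. The sample descriptions also hold a running number, from 1 to 31, and another number that rises with it from cow to cow. What either of them stands for was not given in the sources used here. Running numbers 1, 2 and 3 all belonged to *FGF21* high cows, replicates 1 to 3, whereas the lowest number in the *FGF21* low group was 7.

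No clock gene passed an adjusted p of 0.05 between the groups, and the smallest p among them was that of *DBP*, which was lower in the *FGF21* high cows. The difference in *DBP* was -0.48 on the log2 scale (1.4-fold lower, adjusted p = 0.506) and that in *PER1* was -0.49 (1.4-fold lower, adjusted p = 0.633). The activating arm and the repressor *CRY1* had positive differences, of 0.31 for *ARNTL*, 0.27 for *CRY1* and 0.14 for *CLOCK*. The other 4 genes had negative ones, of -0.24 for *NR1D2*, -0.22 for *PER3*, -0.17 for *NR1D1* and -0.08 for *CRY2*. Thus 3 genes were positive and 6 negative, with adjusted p-values from 0.506 to 0.891 in limma's moderated test over all clusters. Of all clusters, 0.0294% were called at that threshold. Without adjustment, 2 of the 9 genes had a p under 0.05, both lower in the *FGF21* high cows, against a background of 7.42% of all clusters, and of 4.52% for lower values alone. Both also exceeded a fold change of 1.2, which 2.84% of all clusters did together with that p, and 1.54% in the lower direction. The count of 2 was 1 without *FGF21* high replicate 4, and 5 without *FGF21* high replicate 5, *FGF21* high replicate 6 or *FGF21* low replicate 3, and *DBP* had a p under 0.05 in each of the 16 fits that left out 1 cow. The median log2 difference was -0.17 over the 9 genes and -0.02 over all clusters, and the median absolute difference was 0.24 against 0.07. The clock genes also varied more between cows of a group than most clusters, with a median SD of 0.30 on the log2 scale against 0.18.

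**Figure D1:**
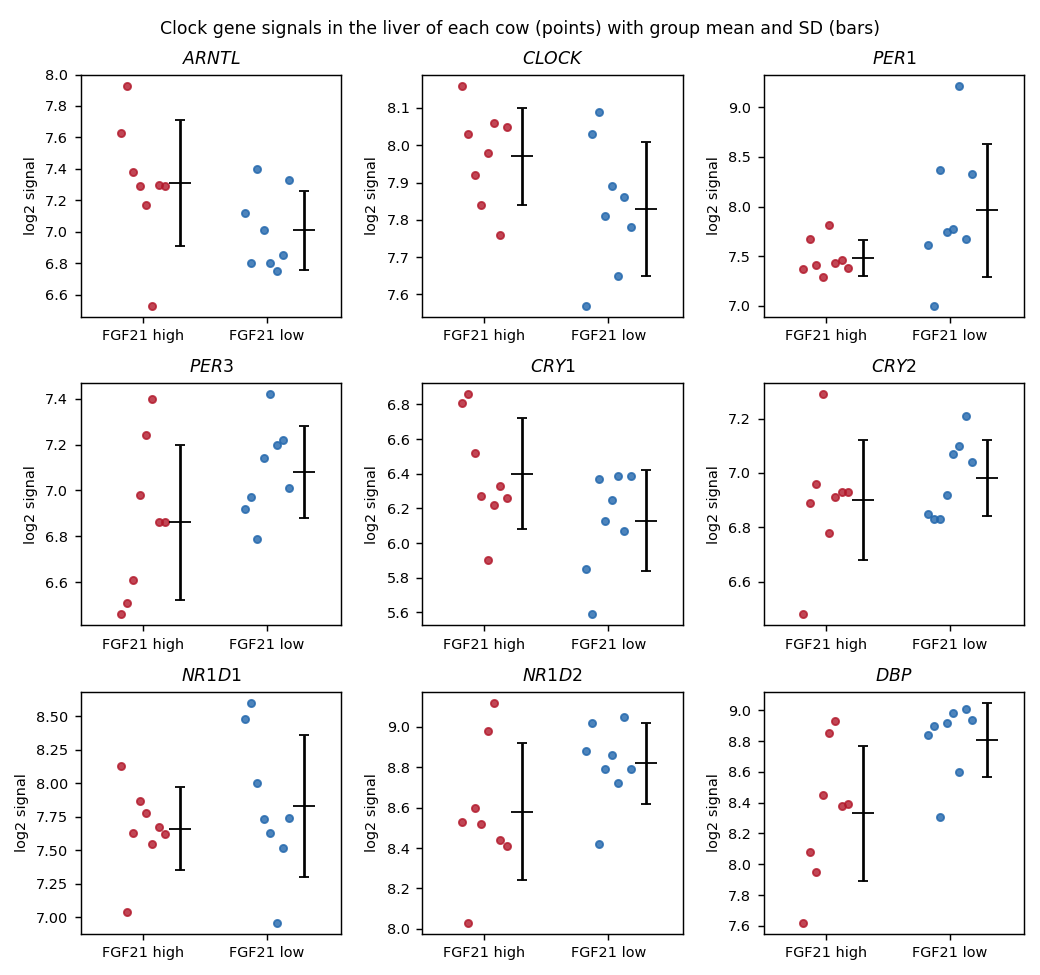
Log2 signal of the 9 clock genes in each cow (points, *FGF21* high left and *FGF21* low right of each panel), with the group mean and SD as a bar (n = 8 each). The groups overlapped for every gene, and the 3 lowest *DBP* signals, from 7.62 to 8.08, lay in *FGF21* high cows.

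*ARNTL* (chromosome 15, 39841299 to 39948727, minus strand, in the array's annotation, for which no source used here states a genome build) encodes the obligatory partner of the positive arm. Its log2 signal was lowest at 6.53, with a median of 7.30 and a highest value of 7.93, in *FGF21* high cows, against 6.75, 6.93 and 7.40 in *FGF21* low cows. The range of the *FGF21* high cows enclosed that of the other group, with 2 cows above and 1 below all *FGF21* low cows. The means were 7.31 ± 0.40 in *FGF21* high cows and 7.01 ± 0.25 in *FGF21* low cows (SD, n = 8 each), a log2 difference of 0.31 with a standard error of 0.15 (adjusted p = 0.682). An exact two-sided permutation test of 8 against 8 cows, whose smallest possible p is 0.000155, gave p = 0.0884.

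*CLOCK* (chromosome 6, 72573694 to 72633076, minus strand), which encodes the histone acetyltransferase partner of ARNTL, was the steadiest of the 9 genes. It spanned 7.76 to 8.16 around a median of 8.01 in *FGF21* high cows and 7.57 to 8.09 around a median of 7.83 in *FGF21* low cows. Its highest and lowest cow were 1.51-fold apart, and its SD within groups was at percentile 30.0 of all clusters. The difference of 0.14 had a standard error of 0.08 (95% interval from -0.03 to 0.31, adjusted p = 0.741, exact p = 0.0914).

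*PER1* (chromosome 19, 28390011 to 28399748, minus strand), a period gene that also responds directly to glucocorticoids and cyclic AMP, was the most variable member. In the *FGF21* high cows it stayed within 7.29 and 7.81, with a median of 7.42. In the *FGF21* low cows it reached from 7.00 to 9.22, with a median of 7.75. The *FGF21* low group therefore held the highest and the lowest signals, and 3 of its cows, replicates 3, 6 and 8, stood at 8.37, 9.22 and 8.33. The means were 7.48 ± 0.18 in *FGF21* high cows and 7.96 ± 0.67 in *FGF21* low cows (SD, n = 8 each), and 8 of 8 *FGF21* high cows lay below the mean of the *FGF21* low cows. The difference of -0.49 had a 95% interval from -0.93 to -0.05 (p = 0.0324, adjusted p = 0.633), and the exact permutation test gave p = 0.0597. Without *FGF21* low replicate 6 the difference was -0.31, and the unadjusted p exceeded 0.05 there as well as without *FGF21* high replicate 4 or *FGF21* low replicate 3 or 8.

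*PER3* (chromosome 16, 46386400 to 46450495, minus strand), a period gene with a smaller part in keeping the rhythm in mice, spanned 6.46 to 7.40 around a median of 6.86 in *FGF21* high cows. In *FGF21* low cows it spanned 6.79 to 7.42 around a median of 7.07. The 3 lowest signals, of 6.46, 6.51 and 6.61, were those of *FGF21* high replicates 1, 2 and 3 and lay below every *FGF21* low cow. The difference of -0.22 had a 95% interval from -0.48 to 0.04 (adjusted p = 0.740, exact p = 0.135).

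The cryptochromes, which are the stronger repressors of the ARNTL and CLOCK pair, had differences of opposite sign. *CRY1* (chromosome 5, 70604520 to 70701030, minus strand) spanned 5.90 to 6.86 around a median of 6.30 in *FGF21* high cows and 5.59 to 6.39 around a median of 6.19 in *FGF21* low cows. The 3 signals above all *FGF21* low cows, of 6.81, 6.86 and 6.52, again belonged to *FGF21* high replicates 1, 2 and 3. Its difference was 0.27 (95% interval from -0.02 to 0.56, adjusted p = 0.695, exact p = 0.101). *CRY2* (chromosome 15, 76753585 to 76790778, plus strand) had group means of 6.90 ± 0.22 in *FGF21* high cows and 6.98 ± 0.14 in *FGF21* low cows (SD, n = 8 each). Its difference of -0.08 had a 95% interval from -0.28 to 0.11 (adjusted p = 0.891, exact p = 0.398), and *FGF21* high replicate 1 had the lowest signal, 6.48. Without that cow the difference was -0.02, and it was -0.14 without *FGF21* high replicate 4 and -0.05 without *FGF21* low replicate 7.

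Of the REV-ERB receptors, *NR1D1* (chromosome 19, 41040925 to 41048228, minus strand), which encodes REV-ERBα, reached from 7.04 to 8.13 in *FGF21* high cows, with a median of 7.65, and from 6.96 to 8.60 in *FGF21* low cows, with a median of 7.74. Its lowest and highest cow were 3.12-fold apart, and both stood in the *FGF21* low group, replicate 6 at 6.96 and replicate 2 at 8.60. The difference of -0.17 had a 95% interval from -0.57 to 0.22 (adjusted p = 0.891, exact p = 0.451). It was -0.30 without *FGF21* low replicate 6, -0.08 without *FGF21* high replicate 2 or *FGF21* low replicate 1, and -0.06 without *FGF21* low replicate 2. *NR1D2* (chromosome 27, 41865820 to 41883542, minus strand), which encodes REV-ERBβ, spanned 8.03 to 9.12 around a median of 8.53 in *FGF21* high cows and 8.42 to 9.05 around a median of 8.82 in *FGF21* low cows. Its difference of -0.24 had a 95% interval from -0.50 to 0.03 (adjusted p = 0.715, exact p = 0.109).

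*DBP* (chromosome 18, 55722335 to 55729578, minus strand), the output transcription factor, had log2 signals of 7.62, 8.08, 7.95, 8.45, 8.85, 8.93, 8.38 and 8.39 in *FGF21* high replicates 1 to 8. In *FGF21* low replicates 1 to 8 they were 8.84, 8.90, 8.31, 8.92, 8.98, 8.60, 9.01 and 8.94. In the *FGF21* low group 6 of 8 cows thus stood close together near the top of the range, with replicate 3 lowest, while the *FGF21* high group was spread over most of it. The means were 8.33 ± 0.44 in *FGF21* high cows and 8.81 ± 0.24 in *FGF21* low cows (SD, n = 8 each), and the difference of -0.48 had a 95% interval from -0.81 to -0.15. Its p was 0.00608 in limma's test (adjusted p = 0.506) and 0.0171 in the exact permutation test. It was the 1 clock gene with an exact p under 0.05, and 0.568% of all clusters differed by at least as much. In bulk biopsies, fewer cells of a type and less RNA per cell cannot be told apart. Beside this, 9 of 10 hepatocyte markers had negative differences, with a median of -0.09 and 4 of them at p under 0.05 without adjustment, against 4.52% of all clusters for lower values, and their mean level ranged from 12.09 to 12.26 in *FGF21* high cows and from 12.22 to 12.42 in *FGF21* low cows. The 4 were *APOA1* (-0.31), *CPS1* (-0.21), *G6PC* (-0.28) and *TAT* (-0.33). The other hepatocyte markers ranged from -0.10 for *APOB* to 0.10 for *FGB*, with *ALB* at -0.02 and *SERPINA1* at -0.01. All 6 measured endothelial markers and all 7 Kupffer cell markers had positive differences, with medians of 0.12 and 0.14, and all 7 stellate cell markers negative ones, with a median of -0.18. In each of these lists 1 marker had an unadjusted p under 0.05, namely *LYVE1* (0.38), *CSF1R* (0.24) and *COL1A2* (-0.19). Of all clusters, 2.89% were higher and 4.52% lower at that p. The mean level of the endothelial markers ranged from 8.16 to 8.57 in *FGF21* high cows and from 8.01 to 8.42 in *FGF21* low cows, and that of the Kupffer cell markers from 8.94 to 9.52 in *FGF21* high cows and from 8.75 to 9.34 in *FGF21* low cows. For stellate cell markers they ranged from 6.99 to 7.63 in *FGF21* high cows and from 7.08 to 7.71 in *FGF21* low cows. The part of cell composition in the clock gene differences was not tested.

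**Figure D2:**
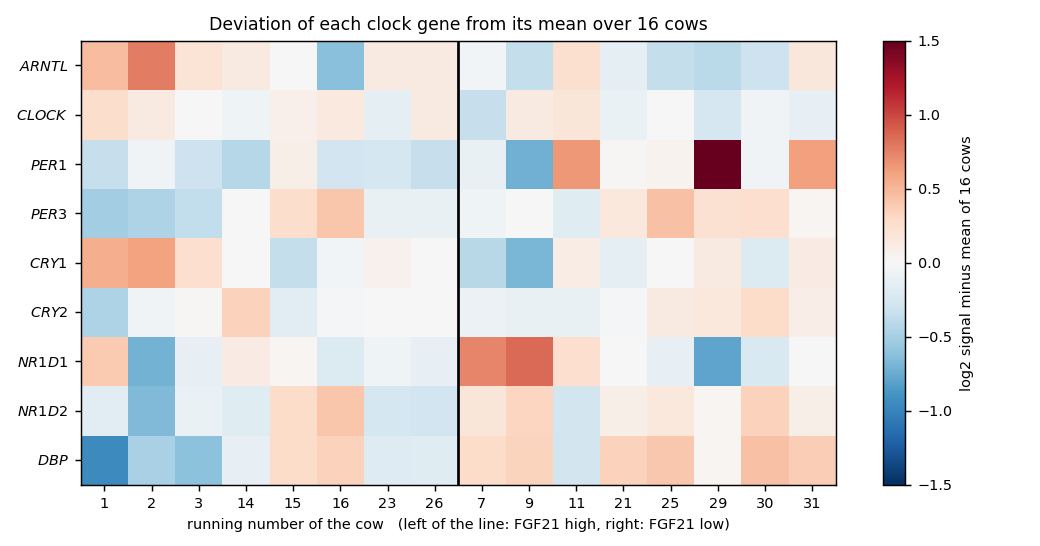
Log2 signal of each clock gene minus its mean over the 16 cows (colour), with cows in columns by running number, *FGF21* high left and *FGF21* low right of the line. *FGF21* high cows 1, 2 and 3 were low in *DBP* and *PER3* and high in *ARNTL* and *CRY1*, and *FGF21* low cow 29 was high in *PER1* and low in *NR1D1*.

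The same 3 *FGF21* high cows, with running numbers 1, 2 and 3, held the lowest *DBP* and *PER3* and the highest *CRY1* signals, so the comparison was repeated without the running numbers that only the *FGF21* high group had. This choice was made after the values were seen. With 5 *FGF21* high and 8 *FGF21* low cows from running number 7 on, the difference in *DBP* was -0.21 with a standard error of 0.13 (means 8.60 in *FGF21* high and 8.81 in *FGF21* low cows, exact permutation p = 0.145, adjusted p = 0.945). *PER1* kept a difference of -0.49 with a standard error of 0.26 (adjusted p = 0.913). The differences of *ARNTL*, *CRY1* and *PER3* were 0.11, 0.07 and -0.02. Within running numbers 7 to 26, which both groups shared with 5 cows each, *DBP* differed by -0.19, *PER1* by -0.22 and *NR1D1* by -0.39, with means of 7.70 in *FGF21* high and 8.09 in *FGF21* low cows (adjusted p = 1.0, and the 1 clock gene with an unadjusted p under 0.05). With the running number as a covariate over all 16 cows, *DBP* differed by -0.34 (adjusted p = 0.728) and *PER1* by -0.36 (adjusted p = 0.815). The part of the running number in the group differences and that of the 3 cows with the lowest numbers cannot be told apart.

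**Figure D3:**
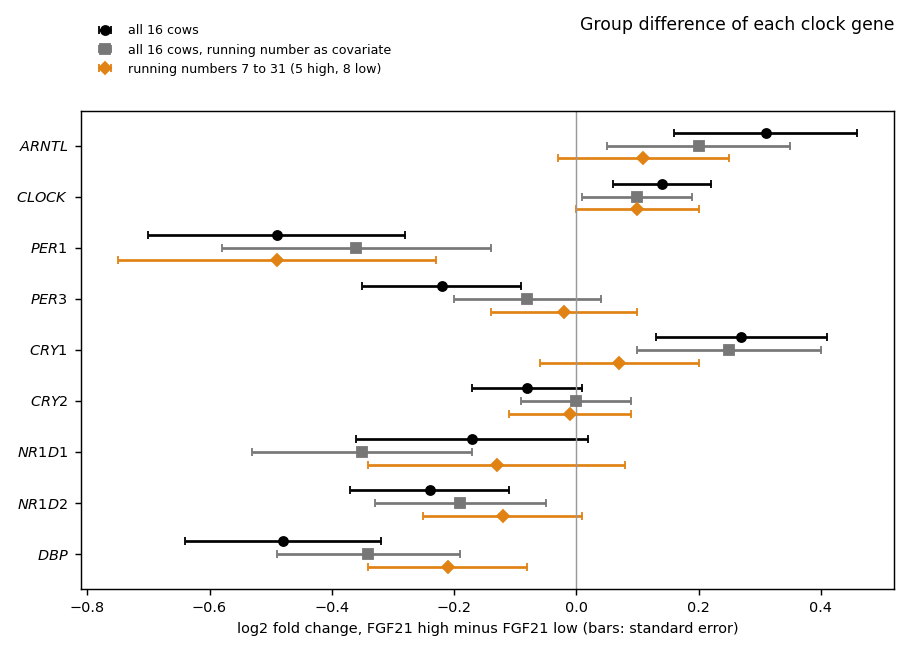
Log2 fold change of each clock gene, *FGF21* high minus *FGF21* low, with its standard error, over all 16 cows, with the running number as a covariate, and from running number 7 on. *DBP* was at -0.48 over all cows and at -0.21 from number 7 on, while *PER1* was at -0.49 in both.

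Across cows, after the group means were subtracted, the running number correlated with *PER3* at a Pearson r of 0.61 (Spearman's rho 0.58, permutation p = 0.0161) and with *CRY2* at an r of 0.57 (rho 0.63, permutation p = 0.0216), over 16 cows. Its r was 0.51 with *DBP* (rho 0.49, permutation p = 0.0481) and -0.51 with *NR1D1* (rho -0.52, permutation p = 0.0574). No gene passed adjustment over the 9 genes (adjusted permutation p = 0.0971 for *PER3* and *CRY2*, 0.129 for *DBP* and *NR1D1*). Without the 2 cows farthest from the median running number, r was 0.61 for *PER3*, 0.48 for *CRY2*, 0.40 for *DBP* and -0.46 for *NR1D1*. Within the *FGF21* low group, *CRY2* had an r of 0.91 (exact permutation p = 0.00456) and *NR1D1* an r of -0.85 (exact permutation p = 0.0037), each with an adjusted p of 0.041 over 18 relations. In the *FGF21* high group the same 2 genes had an r of 0.37 and 0.06 (exact permutation p = 0.391 and 0.901). The difference between the groups in these correlations was not tested.

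**Figure D4:**
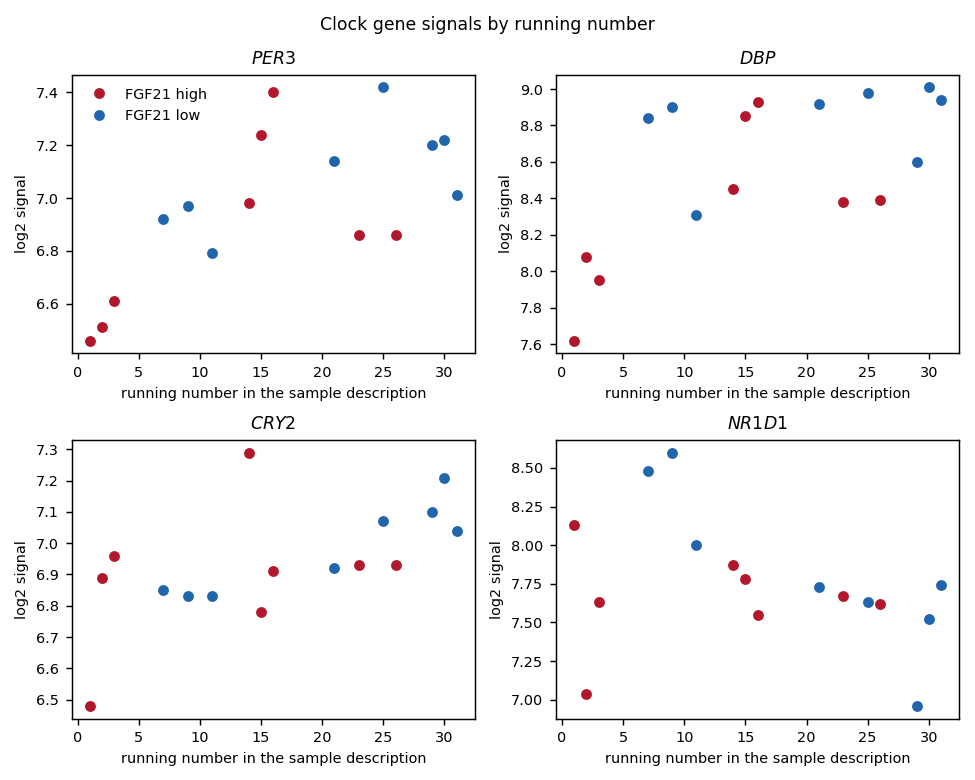
Log2 signal of *PER3*, *DBP*, *CRY2* and *NR1D1* against the running number in the sample description, 1 point per cow. In the *FGF21* low cows *CRY2* was higher and *NR1D1* lower at high numbers, and the 3 lowest *PER3* and *DBP* signals belonged to numbers 1 to 3.

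The next question was which clock genes varied together between cows of the same group. Of the 36 pairs of clock genes, 8 correlated at an adjusted p under 0.05 over 16 cows, 3 of them positively and 5 negatively, and 13 had a p under 0.05 without adjustment. For this and the later sets of pairs, the share over pairs of all clusters was not computed. The counts therefore do not show whether clock genes correlate more often than other genes. The called pairs joined *PER3*, *NR1D2* and *DBP* positively with each other, and set *ARNTL* against all 3 and *CRY1* against *NR1D2* and *DBP*. With Spearman's rho in place of r, 2 pairs were called, and both were among these 8. When 1 cow at a time was left out, 2 to 9 pairs were called. There were 2 without *FGF21* high replicate 6 or *FGF21* low replicate 3, 3 without *FGF21* high replicate 7 or 8 or *FGF21* low replicate 7, 4 without *FGF21* high replicate 4 or 5, and 5 without *FGF21* low replicate 2. *PER3* with *DBP* and *ARNTL* with *PER3* were called each time. Arrays share their scaling, so every pair of genes from 1 array shares that source of error. The study also reports some RNA degradation in these samples, which it says can limit the performance of arrays. The part of RNA integrity in these correlations was not tested.

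*PER3* and *DBP* varied together, with an r of 0.86 (rho 0.86, adjusted permutation p = 0.00288) and an r of 0.82 without the 2 cows farthest from the median of *PER3*. For each pair of clock genes, this median was that of the gene that comes first in the opening list. The correlation was 0.96 in the *FGF21* high cows alone (exact permutation p = 0.000273) and 0.56 in the *FGF21* low cows alone (exact permutation p = 0.157). From running number 7 on it was 0.74 and not called (adjusted permutation p = 0.0771), and within running numbers 7 to 26 it was 0.85 and called (adjusted permutation p = 0.0301). *ARNTL* ran opposite to *PER3*, with an r of -0.84 (rho -0.83, adjusted permutation p = 0.00216) and -0.74 without the 2 farthest cows. It was -0.88 in the *FGF21* high cows (exact permutation p = 0.000174) and -0.73 in the *FGF21* low cows (exact permutation p = 0.0407). The cow with the lowest *ARNTL* signal of all, *FGF21* high replicate 6 at 6.53, had *PER3* at 7.40, *NR1D2* at 9.12 and *DBP* at 8.93, in each case the highest of its group. *FGF21* high replicate 2 was its counterpart, with the highest *ARNTL* signal, 7.93, beside the lowest *NR1D2*, 8.03.

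**Figure D5:**
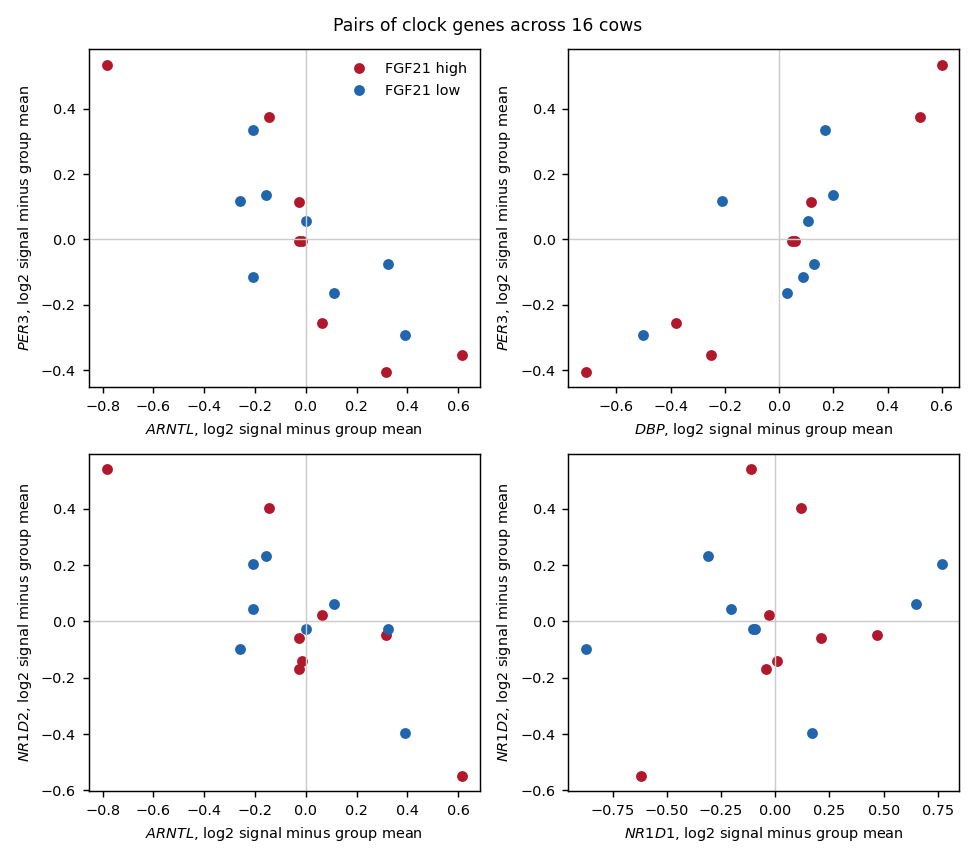
Log2 signals after subtraction of each group's mean, 1 point per cow, for *ARNTL* with *PER3*, *DBP* with *PER3*, *ARNTL* with *NR1D2*, and *NR1D1* with *NR1D2*. The first pair ran in opposite directions (r = -0.84), the second together (r = 0.86), the third in opposite directions (r = -0.81), and the fourth had no called correlation (r = 0.25).

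The remaining called pairs had smaller coefficients. *ARNTL* correlated with *NR1D2* at an r of -0.81 (rho -0.56, adjusted permutation p = 0.0115), and at -0.55 without the 2 farthest cows. *ARNTL* with *DBP* had an r of -0.68 (rho -0.62, adjusted permutation p = 0.0471). *NR1D2* correlated positively with *PER3*, at 0.71 (rho 0.54, adjusted permutation p = 0.0435), and with *DBP*, at 0.69 (rho 0.67, adjusted permutation p = 0.0471). *CRY1* correlated negatively with *DBP*, at -0.68 (rho -0.52, adjusted permutation p = 0.0435), and with *NR1D2*, at -0.67 (rho -0.59, adjusted permutation p = 0.0435). Without the 2 farthest cows these 5 pairs had an r of -0.57, 0.68, 0.62, -0.77 and -0.53 in the same order. The relations of *ARNTL*, *CRY1*, *NR1D2* and *DBP* thus kept their sign.

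*NR1D1* and *NR1D2* had no called correlation, with an r of 0.25 (rho 0.10, adjusted permutation p = 0.547). *NR1D1* ran opposite to *PER1* at an r of -0.69 (rho -0.34, adjusted permutation p = 0.0664), which was -0.76 in the *FGF21* low cows (exact permutation p = 0.0308) and -0.42 in the *FGF21* high cows (exact permutation p = 0.308). *PER1* and *CRY1* had an r of -0.20 in the *FGF21* high cows (exact permutation p = 0.647) and of 0.84 in the *FGF21* low cows (exact permutation p = 0.00811), and 0.51 in both together (adjusted permutation p = 0.108). *CLOCK* entered none of the called pairs, and its r with *ARNTL* was 0.10.

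Within neither group did a clock gene follow *FGF21* at an adjusted p under 0.05, in 18 relations tested. By exact permutation, 2 of them had an unadjusted p under 0.05, both in the *FGF21* low cows. *NR1D1* had an r of 0.68 (rho 0.67, exact permutation p = 0.0614, adjusted p = 0.368) in the *FGF21* high cows and of 0.75 (rho 0.81, exact permutation p = 0.0262, adjusted p = 0.299) in the *FGF21* low cows. Without the 2 cows of each group farthest from its median *FGF21* signal, r was 0.36 in the *FGF21* high cows and 0.47 in the *FGF21* low cows. *CRY2* had an r of -0.49 in the *FGF21* high cows (exact permutation p = 0.22) and of -0.80 in the *FGF21* low cows (exact permutation p = 0.0333, adjusted p = 0.299). Without the 2 farthest cows its r was 0.72 in the *FGF21* high cows and -0.58 in the *FGF21* low cows, so the sign turned in the *FGF21* high cows. All *FGF21* signals of the *FGF21* low cows lay below 6.28, the median log2 signal over all clusters. That of *FGF21* high replicate 7, at 6.16, lay below it as well. The study's qPCR gave a larger difference in *FGF21* between the groups than the array did. In the *FGF21* low group *FGF21* also stepped with the running number, from 5.38 to 5.51 in the 5 cows with numbers 7 to 25 and from 4.78 to 4.89 in the 3 cows with numbers 29 to 31. *NR1D1* and *CRY2* are the genes that correlated with the running number in these cows, so the relations with *FGF21* and with the running number cannot be told apart.

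Further genes of the clock machinery were read from a list of 11 partners, of which 10 were measured. None passed an adjusted p of 0.05, and without adjustment 2 were higher and 2 lower in *FGF21* high cows at a p under 0.05, against 2.89% and 4.52% of all clusters. *NFIL3*, the repressor that competes with DBP at D-boxes, had a mean of 7.33 in *FGF21* high and 6.96 in *FGF21* low cows, a difference of 0.37 (exact permutation p = 0.0124, adjusted p = 0.489), and all 8 *FGF21* high cows lay above the mean of the *FGF21* low cows. The highest *NFIL3* signal of all cows, 7.63, was however that of *FGF21* low replicate 6. *BHLHE40*, an E-box repressor also called DEC1, differed by 0.56 (exact permutation p = 0.0639, adjusted p = 0.63), and *HLF*, a D-box activator related to DBP, by -0.19 (exact permutation p = 0.0418, adjusted p = 0.647). *RORA*, the gene of a receptor that activates *ARNTL*, differed by -0.24 (exact permutation p = 0.0606, adjusted p = 0.669), and by -0.15 without *FGF21* low replicate 6. The unadjusted p of *RORA* also exceeded 0.05 without *FGF21* high replicate 1, 2, 3, 4, 7 or 8 or *FGF21* low replicate 1, 3, 4 or 8 (differences from -0.26 to -0.22). That of *HLF* did so without *FGF21* high replicate 1, 3, 4, 5 or 8 or *FGF21* low replicate 2, 3, 4 or 5 (from -0.18 to -0.16). That of *BHLHE40* did so without *FGF21* high replicate 4 or 5 or *FGF21* low replicate 1, 2 or 3 (from 0.41 to 0.50).

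*NPAS2*, which can take the place of CLOCK beside ARNTL, differed by 0.21 (exact permutation p = 0.0775, adjusted p = 0.685) and varied with *ARNTL* from cow to cow. Of 20 pairs of *ARNTL* or *DBP* with the 10 partners, 2 were called by r. *NPAS2* correlated with *ARNTL* at an r of 0.76 (rho 0.71, adjusted permutation p = 0.0044) and with *DBP* at an r of -0.75 (rho -0.72, adjusted permutation p = 0.0117). Without the 2 cows farthest from the median of *ARNTL* or of *DBP*, r was 0.75 and -0.73. By rho both were called, and so was *DBP* with *BHLHE40* (rho 0.65, adjusted permutation p = 0.0492). That pair had an r of 0.52 (adjusted permutation p = 0.204). *NFIL3* had an r of -0.03 with *ARNTL* and of -0.15 with *DBP*.

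Of 12 genes for the turnover of clock proteins and transcripts 10 were measured, and 1 had an unadjusted p under 0.05 with a lower value, against 4.52% of all clusters. This was nocturnin, under its older symbol *CCRN4L*, a rhythmic gene of mouse liver, with means of 6.16 in *FGF21* high and 6.64 in *FGF21* low cows, a difference of -0.48 (exact permutation p = 0.00466, adjusted p = 0.509). All 8 *FGF21* high cows lay below the mean of the *FGF21* low cows. The kinases *CSNK1D*, *CSNK1A1* and *CSNK2A1*, which phosphorylate PER proteins, differed by -0.07, -0.01 and -0.01. Among 14 clock-controlled liver genes, 2 were higher and 2 lower at an unadjusted p under 0.05, against 2.89% and 4.52% of all clusters, and none passed adjustment. *GYS2*, the liver glycogen synthase, differed by -0.42 (exact permutation p = 0.0171, adjusted p = 0.512), and *INSIG2*, which restrains the synthesis of sterols, by -0.29 (exact permutation p = 0.0326, adjusted p = 0.58). *CDKN1A*, a cell cycle inhibitor, differed by 0.34 (exact permutation p = 0.0416, adjusted p = 0.614) and *KLF10* by 0.38 (exact permutation p = 0.0535, adjusted p = 0.629). *NAMPT*, *WEE1* and *ALAS1* differed by 0.10, -0.07 and -0.13, with adjusted p-values of 0.889, 0.961 and 0.93. The unadjusted p exceeded 0.05 for *CDKN1A* without *FGF21* high replicate 5 (0.25) and for *KLF10* without *FGF21* high replicate 4, 5 or 8 or *FGF21* low replicate 1 or 4 (differences from 0.30 to 0.34).

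Inputs that can set the clock were read from lists of glucocorticoid, immediate early and temperature response genes. Of 11 glucocorticoid response genes, 3 were lower in *FGF21* high cows at an unadjusted p under 0.05, against 4.52% of all clusters, and none passed adjustment. *KLF9* differed by -0.26 (exact permutation p = 0.00979, adjusted p = 0.538), *TAT*, also among the hepatocyte markers, by -0.33 (exact permutation p = 0.0429, adjusted p = 0.601) and *TSC22D3*, also called GILZ, by -0.30 (exact permutation p = 0.0688, adjusted p = 0.659). The glucocorticoid receptor *NR3C1* differed by -0.03 and *FKBP5* by 0.13. The unadjusted p exceeded 0.05 for *TAT* without *FGF21* high replicate 2 (-0.27), and for *TSC22D3* without *FGF21* high replicate 3, 4, 7 or 8 or *FGF21* low replicate 3, 4, 6 or 8 (differences from -0.30 to -0.20). Of 11 immediate early and cyclic AMP response genes, 2 were lower at an unadjusted p under 0.05, against 4.52% of all clusters. *PPARGC1A* differed by -0.51 (exact permutation p = 0.00777, adjusted p = 0.512) and *SIK1* by -0.22 (exact permutation p = 0.00963, adjusted p = 0.565), while *FOS* differed by -0.07 and *EGR1* by 0.09. None of 6 temperature response genes had a p under 0.05, and the smallest were those of *HSPH1*, with a difference of 0.30, and *DNAJB1*, with 0.16. The difference of *HSPH1* was 0.18 without *FGF21* high replicate 1. Without *FGF21* high replicate 5 the unadjusted p was under 0.05 for both, with differences of 0.41 for *HSPH1* and 0.20 for *DNAJB1*.

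*PER1* was then set against the glucocorticoid and immediate early genes. In 22 relations, examined after the spread of *PER1* was seen, *TSC22D3* alone was called, with an r of 0.79 over 16 cows (rho 0.72, adjusted permutation p = 0.0231), which was 0.48 without the 2 cows farthest from the median of *PER1*. The relation therefore rested in part on those cows. *ZBTB16* had an r of 0.70 (rho 0.53, adjusted permutation p = 0.193), *FKBP5* of 0.64 (rho 0.49, adjusted permutation p = 0.253) and *KLF9* of 0.56 (rho 0.71, adjusted permutation p = 0.193). Without the 2 farthest cows these had an r of 0.16, -0.12 and 0.35. Of the other glucocorticoid response genes, *SGK1* had an r of 0.45, *DUSP1* of 0.30, *PCK1* of 0.08 and *TAT* of 0.07. *ANGPTL4*, *SDS* and *NR3C1* had negative coefficients, of -0.17, -0.25 and -0.28. The immediate early and cyclic AMP response genes ranged from -0.28 for *ATF3* to 0.55 for *PPARGC1A*. *FGF21* low replicate 6, with *PER1* at 9.22, also had the highest *TSC22D3*, 8.89, *NFIL3*, 7.63, *CCRN4L*, 7.62, and *PPARGC1A*, 10.42, of all 16 cows.

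Last, the 3 transcripts whose group-centred signals were most like each clock gene over the 16 cows were picked from 9334 clusters with a signal above the median, as a description with no test. *PER3* was the transcript most like *DBP* and *DBP* that most like *PER3* (r = 0.86), and *ITGB5*, an integrin subunit, came next for both (r = 0.85), followed by *VTN*, the integrin ligand vitronectin, for *DBP* and by *CCL16* for *PER3* (both r = 0.82). *ARNTL* was nearest to *GTPBP3* (r = 0.79), *PABPN1* (r = 0.77) and *NPAS2* (r = 0.76). *PER1* was nearest to the kinase gene *MKNK1* (r = 0.85), to *NFIL3* (r = 0.84) and to *LPIN1* (r = 0.83), the gene of a phosphatidate phosphatase. *CRY1* was closest to the chaperone-related *CACYBP* and *AHSA1* (r = 0.88 and 0.82) and to *HEXIM1* (r = 0.83), and *CRY2* to the hepatic transcription factor *FOXA3* (r = 0.87), *RAB11FIP4* (r = 0.80) and *SLC29A2* (r = 0.77). *NR1D1* was closest to *ERBB2* (r = 0.81), *TTC17* (r = 0.79) and *SULT1C2* (r = 0.78), and *NR1D2* to *ENPP2* (r = 0.87), *DOPEY1* (r = 0.85) and *C29H11orf68* (r = 0.82). The neighbours of *CLOCK* were *TMEM230*, *STRAP* and *GUF1* (r = 0.89, 0.87 and 0.86). *CRY1* has a signal below the median and could not be picked as a neighbour.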

How the data were processed

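RNA of 16 liver biopsies was hybridised by the authors to 1 Affymetrix array per cow. The deposited values are log2 signals per transcript cluster that the authors made by RMA (background correction, quantile normalization and probe summary). The submitters' processing notes name Affymetrix Expression Console 1.4. The values are labelled SST-RMA, and what the SST step adds is not described here. No source used here states the genome build. The authors' own group means, fold changes and p-values in the same table were not used, and the deposited table rounded to fewer decimals was an alternative. Quantile normalization reduces overall differences between arrays, so a change of all transcripts together would not be seen in full. Some differences between arrays in median and interquartile range remained in the deposited values.

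Groups came from the sample labels, and replicates are separate cows. All 20421 clusters were fitted with limma 3.58.1 (R 4.3.3, lmFit and eBayes, group as the only term), with Benjamini-Hochberg adjustment over all clusters. Single clock genes were tested by an exact two-sided permutation of 8 against 8 cows (12870 assignments). Correlations used signals minus group means and 100000 resamples within groups (Python 3.11.15, scipy 1.17.1), adjusted over the pairs named. The study's criteria were an unadjusted p under 0.05 and a fold change over 1.2. The scripts were tested on simulated data. The text names *FGF21*, all clock genes, up to 4 genes per list with an unadjusted p under 0.05 (the 2 smallest where none had), and the 3 nearest transcripts of each clock gene; other list members named with their values were chosen after their values were seen. The clock genes and all lists were chosen with earlier results of these data known. Alternatives were other tests, array weights, normalization, a filter on dim clusters, a replicate block, the running number, and leaving out cows. The number of arrays limits the precision. Sequences of the clock genes were not used here, and 1 gene of the list of clock partners is not reported here.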

Additional observations from a re-analysis of the deposited data

Results flagged for a closer look

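In 50 groups of 8 cows (25 genes in 2 groups), 4 single cows stood apart from the rest of their group by Dixon's test, none of them for a clock gene; chance flags about 1 in 20 groups. *CDKN1A* had a cow apart in both groups, at 7.20 in *FGF21* high replicate 5 (the other cows 6.36 to 6.66) and at 6.99 in *FGF21* low replicate 6 (the others 5.99 to 6.42). *SIK1* was 6.47 in *FGF21* high replicate 7 (the others 6.07 to 6.19). *RORA* was 9.08 in *FGF21* low replicate 6 (the others 8.16 to 8.53).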

How the results depend on the processing

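No clock gene passed an adjusted p of 0.05 under any alternative, and *DBP* had an unadjusted p under 0.05 in 26 of 28, the exceptions being the 2 ranges of running numbers (chosen after seeing the data). Direction changed for *CRY2* with the running number as covariate (0.002) and within running numbers 7 to 26 (0.07), and for *PER3* there (0.02). The 2 clock genes at an unadjusted p under 0.05 became 1 with the methods' t-test, Welch's test, trend and robust fitting, the running number as covariate or running numbers 7 to 26, 0 from running number 7 on, 5 with array weights, and 1 to 5 without each cow in turn. The 6 clusters called after adjustment became 0 with the methods' t-test, Welch's test (1464 and 1396 at an unadjusted p under 0.05) or running numbers 7 to 26 (1003), 3 from number 7 on, and 2 to 7 without each cow in turn (2 without *FGF21* high replicate 5, 6 or 8 or *FGF21* low replicate 2 or 6, 3 without *FGF21* low replicate 1 or 4). The 579 clusters past both criteria (264 higher, 315 lower) became 319 above the median signal, 1515 with no fold threshold and 527 to 779 without each cow in turn; the split was 298 higher and 229 lower after quantile normalization again and 301 and 260 after subtraction of array medians. The 8 called pairs became 2 by Spearman's rho or in the *FGF21* high group alone, 3 after either normalization, without the 2 farthest cows or from running number 7 on, 5 within numbers 7 to 26, 0 in the *FGF21* low group alone (7 at an unadjusted p under 0.05), and 2 to 9 without each cow in turn. The cause of these changes was not tested.

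The replicate numbers do not pair cows: deviations of same-numbered cows correlated at -0.21 to 0.13, and 0 of 8 correlated best with their own number. With the replicate number as a block, 4 clock genes had an unadjusted p under 0.05, 2 clusters were called after adjustment, and 2 pairs of clock genes were called. The weaker cluster of a gene was not run, since each clock gene had 1 cluster. *CRY1* was dimmer than the median cluster, so it has no value under that filter.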
